A study of Homo sapiens with 6 samples.

Results

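The MYC, MAX and MXD network is a group of basic helix-loop-helix leucine zipper transcription factors that pair with MAX or MLX and bind the DNA word CACGTG, called the E-box. Its members here were the 10 genes MYC, MYCL, MAX, MXD1, MXD3, MXD4, MXI1, MNT, MGA and MLX, taken by name from the 63299 genes of the deposited count table, and all 10 passed the filter on low counts. Messenger RNA was measured in LNCaP, an established cell line from a lymph node metastasis of human prostate cancer whose growth needs androgen. The control group was 3 libraries titled No KD (Dox-), and the other group was 3 libraries titled MEP50 KD (Dox+), called the knockdown below. The series used a short hairpin RNA against MEP50, and Dox is read here as doxycycline, a drug commonly used to induce such hairpins. MEP50, whose gene is WDR77, works as a cofactor of PRMT5, an arginine methyltransferase. The controls differ from the knockdown in the drug as well as in the hairpin's effect, and these cannot be told apart. The dose, the duration and whether the line was 1 clone are not given in the sources used here.

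MYC and its relative MYCL bind DNA as dimers with MAX and raise the transcription of genes for ribosome assembly, metabolism and cell division. MXD1, MXI1, MXD3, MXD4 and MNT compete for the same partner and recruit the SIN3 corepressor and histone deacetylases to the same sites. MGA pairs with MAX inside a Polycomb complex that silences germline genes, and MLX pairs with the glucose sensors MLXIP and MLXIPL as well as with some of the antagonists. In prostate cancer, MYC is among the genes most often gained in copy number.

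The sequences below show the E-boxes found in promoters of members and of LDHA, a well-known MYC target, since competition for this word is what defines the network. The windows came from RefSeq promoters on GRCh38.p14, each running from 250 bases before the start site to 50 after it. Of the 10 members 9 had an entry there, and MYC had none. CACGTG reads the same on both strands and stands in capitals, and each line runs 5′ to 3′ on the gene's strand.
MLX, chr17:42567038-42567067, plus strand: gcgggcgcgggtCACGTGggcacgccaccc
MXD4, chr4:2262330-2262359, minus strand: gggccgggccacCACGTGctgttgctaagc
MNT, chr17:2401236-2401265, minus strand: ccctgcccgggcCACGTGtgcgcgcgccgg
LDHA, chr11:18394366-18394395, plus strand: agactcccagcgCACGTGgagcagtctgcc
LDHA, chr11:18394464-18394493, plus strand: cagcccgactcaCACGTGggttcccgcacg
The box in the MLX promoter begins 50 bases before the start site, that of MNT 193 bases before it and that of MXD4 238 bases before it. CACGTG was in 3 of the 9 member promoters and in 7.26% of all 35116 promoters of this length. The promoters of MYCL, MAX, MXD1, MXD3, MXI1 and MGA held no match in this window.

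The libraries held 18568002 to 36234784 counts on genes. WDR77, the target of the hairpin, was lower in every knockdown library (13.9 ± 1.16 against 44.4 ± 6.73 CPM, mean ± SD, n = 3 libraries per group). CPM is the read count scaled to a common library size, and it is not corrected for gene length. The 7 luminal prostate markers reported (KLK3, KLK2, HOXB13, FOLH1, TMPRSS2, KRT8 and KRT18) were all expressed. Their summed level was 5860 to 7300 CPM in control and 3280 to 3600 CPM in knockdown libraries, and the part of this fall in the results below was not tested. Of the 3 basal markers KRT5 was at 0 and TP63 near it, and the list summed to at most 1.11 CPM. KRT14, the third, had 0.852 ± 0.233 CPM in control and 0.0763 ± 0.132 CPM in knockdown libraries. It was called lower (edgeR adjusted p 0.0338), on at most 39 reads in a library. The 5 stromal and blood markers summed to 5.39 to 14.4 CPM in control and 9.46 to 12.7 CPM in knockdown libraries, nearly all from COL1A1. The others, COL1A2, DCN, PECAM1 and PTPRC, were near 0. In bulk RNA a fall in the number of cells in a state and a fall in RNA per cell cannot be told apart.

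In the knockdown, MYC, both common partners MAX and MLX, and the antagonist MXD3 had mean levels 1.39 to 1.51 times lower than in control. The antagonists MXI1 and MXD4 had means 1.38 and 1.27 times higher. The means of MYCL, MXD1, MNT and MGA differed by at most 1.12 times. Without regard to replicate pairs, edgeR called 1 member lower (MAX) and 0 higher at an adjusted p under 0.05, where 4.88% of the 21101 tested genes were called lower and 2.72% higher. At an unadjusted p under 0.05 there were 5 members, where 24.7% of all tested genes stood. DESeq2 called 2 members lower (MYC and MAX) and 0 higher, against 7.38% and 4.13% of its 20190 genes with an adjusted p. Libraries with the same replicate number deviated together, and with these pairs as a block 4 members were called lower (MYC, MAX, MLX and MXD3) and 2 higher (MXI1 and MXD4). The block called 14.9% of all genes lower and 11.2% higher, so its background is also larger. Of the 9636 tested coding genes with a mean of at least 10 CPM, 8.22% were lower and 2.40% higher without the block. With the block these shares were 24.2% and 10.9%, and 2960 of the 9636 had an unadjusted p under 0.05 without it. Control and knockdown ranges did not overlap for 4 lower members (MYC, MAX, MLX and MXD3) and 2 higher ones (MXI1 and MGA), where 17.0% of tested genes lay lower without overlap and 13.4% higher. Of the 9636 coding genes, 2382 lay lower without overlap and 1081 higher. The median log2 fold change over the 10 members was -0.07, with 5 members below 0 and 5 above. That of all tested genes was 0.00 and that of the 9636 coding genes was -0.08.

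**Figure D1:**
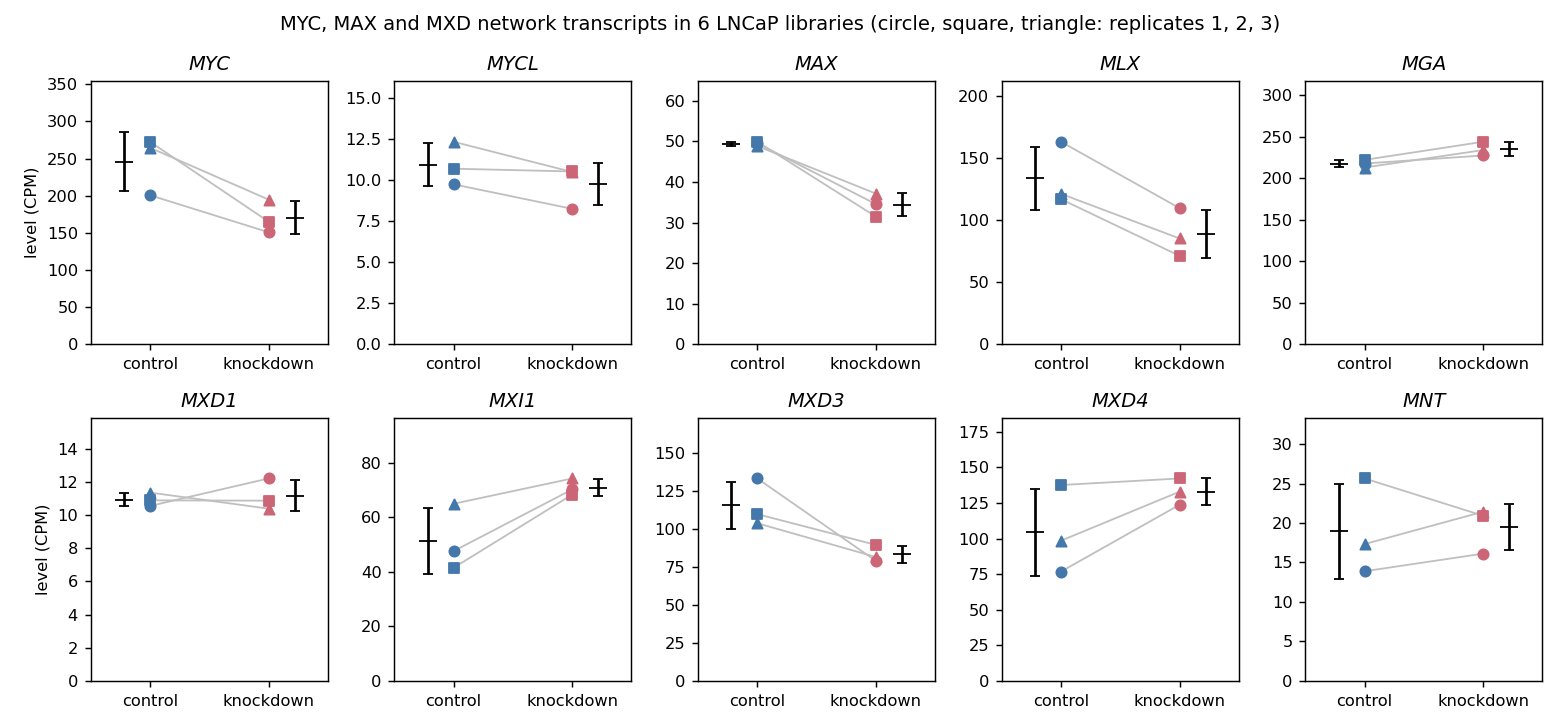
Level of each of the 10 members in CPM (vertical axis, from 0) in the 3 control and 3 knockdown libraries, with lines joining libraries of the same replicate number and bars for the mean and SD. MYC, MYCL, MAX, MLX and MXD3 go down along all 3 lines, and MXI1, MXD4 and MGA go up along all 3. MXD1 and MNT go both ways.

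MYC (ENSG00000136997.15, chromosome 8, 127735434 to 127741434, hg38) is the activator at the head of the network. It was counted at 200.6, 272.6 and 264.6 CPM in control replicates 1, 2 and 3 and at 150.8, 165.1 and 194.8 CPM in knockdown replicates 1, 2 and 3. The highest knockdown library lay just under the lowest control library. Its log2 fold change was -0.53 (SE 0.16), which missed the threshold without the block (edgeR adjusted p 0.0751) and passed with it (-0.53, SE 0.10, adjusted p 0.0027). Within pairs the log2 differences were -0.41, -0.72 and -0.44. MYC fell in each of the block fits on 2 pairs (adjusted p up to 0.0181), and DESeq2, which ignores the pairs, also called it lower (adjusted p 0.0408). Without the block, no fit that left out a library called MYC (edgeR adjusted p 0.0657 to 0.22). Upper quartile scaling (-0.41, edgeR adjusted p 0.174) and limma-voom (adjusted p 0.0719) did not call it either.

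MYCL, the relative of MYC found amplified in lung cancer, had few reads. Its 3 control libraries held 9.74, 10.7 and 12.3 CPM and its 3 knockdown libraries 8.25, 10.5 and 10.5 CPM, from 154 to 432 reads. The groups overlapped, and the log2 fold change was -0.16 (SE 0.18, edgeR adjusted p 0.62). MYCN, the third MYC gene, had 0 reads in each of the 6 libraries and was not tested.

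MAX (ENSG00000125952.18, chromosome 14, 65006174 to 65102695) is a partner with which MYC, the MXD proteins, MNT and MGA bind DNA. Control libraries were tightly grouped at 49.6, 49.9 and 48.9 CPM, and knockdown libraries held 34.5, 31.5 and 37.1 CPM. All 3 knockdown values lay well below all 3 control values. MAX fell by 0.52 on the log2 scale (SE 0.13, edgeR adjusted p 0.0384), the smallest p of the network, and by 0.53 with the block (adjusted p 0.00347). Without the block the call was lost whichever of the 6 libraries was left out, with adjusted p from 0.0588 to 0.154 and log2 fold changes from -0.59 to -0.46. It was also lost with upper quartile scaling (adjusted p 0.0888), which moves the median of all genes by 0.121. In the block fits on 2 pairs it was called each time (adjusted p up to 0.0378).

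MLX (ENSG00000108788.11, chromosome 17, 42567068 to 42573239) is the other common partner, and its promoter holds the E-box nearest to a start site among the members. Its levels were 163.0, 116.8 and 121.1 CPM in controls and 109.6, 71.2 and 85.2 CPM in knockdown. Replicate 1 was the highest of its group in both conditions, and the ranges came close without touching. The log2 fold change of -0.59 (SE 0.19) was the lowest in the network, missed the threshold without the block (edgeR adjusted p 0.0929) and passed with it (-0.60, adjusted p 0.000734). MLX shares 18.1% of its exon length with PSMC3IP on the opposite strand, which had 33.4 ± 8.24 CPM in control and 21.2 ± 6.22 CPM in knockdown libraries. Whether the counting used strand is not given in the sources used here, so reads from that stretch cannot be assigned to either gene with certainty.

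Among the antagonists, MXD3 went with MYC and not against it. MXD3 (ENSG00000213347.10, chromosome 5, 177301461 to 177312757), the family member known from dividing cells in S phase, held 133.4, 109.9 and 103.9 CPM in controls and 79.1, 89.6 and 81.7 CPM in knockdown. The groups did not overlap. It had a log2 fold change of -0.47 (SE 0.13, edgeR adjusted p 0.0652) and fell by 0.46 with the block (adjusted p 0.00854), a call lost when pair 1 was left out of the block fit (-0.30, adjusted p 0.242). MXD3 is the member with most shared sequence. PRELID1 covers 22.5% of its exon length on the opposite strand and had 172.8 ± 23.9 CPM in control and 131.3 ± 17.1 CPM in knockdown, and RAB24 covers 18.0% on the same strand, at 3.79 and 4.93 CPM. Whether reads from the shared stretches were counted for MXD3, for a neighbour or for neither is not given in the sources used here. Their effect on the MXD3 count was not tested.

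MXI1 and MXD4, both linked to exit from the cell cycle and differentiation, went the other way. MXI1 (ENSG00000119950.20, chromosome 10, 110207605 to 110287365) held 47.6, 41.5 and 64.9 CPM in controls and 70.2, 68.3 and 74.2 CPM in knockdown. Every knockdown library was above every control library, with control replicate 3 close to the knockdown group. The log2 fold change was 0.46 (SE 0.17, edgeR adjusted p 0.13), and with the block MXI1 rose by 0.49 (adjusted p 0.00807) and stayed called in each block fit on 2 pairs. Without control replicate 3 it was also called without the block (0.67, adjusted p 0.0492). No other fit that left out a library called it (edgeR adjusted p up to 0.288). DESeq2 (adjusted p 0.158), limma-voom (0.116) and edgeR with upper quartile scaling (0.0839) did not call it either.

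MXD4 (ENSG00000123933.15, chromosome 4, 2247432 to 2262294) was the most variable of the abundant antagonists. Its controls held 76.8, 137.6 and 98.5 CPM, and its knockdown libraries 123.7, 142.2 and 132.9 CPM. Control replicate 2 lay inside the knockdown range, while the other two controls lay below it. The log2 fold change was 0.35 (SE 0.20, edgeR adjusted p 0.31) without the block, and 0.39 (adjusted p 0.0325) with it. Pair 2 showed almost no difference (log2 of 0.05, against 0.69 and 0.43 in pairs 1 and 3), and the block call was lost without pair 1 and without pair 3 (adjusted p up to 0.32).

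The remaining antagonists MXD1 and MNT and the MAX partner MGA were not called in any fit. MXD1, which rises in differentiating cells, held 10.6, 10.9 and 11.4 CPM in controls and 12.2, 10.9 and 10.4 CPM in knockdown. Its log2 fold change was 0.03 (SE 0.16, edgeR adjusted p 0.938). MNT, the antagonist present in most cell types, ranged from 13.9 to 25.6 CPM in controls and from 16.1 to 21.4 CPM in knockdown (0.04, SE 0.24). The sign of both changed when single libraries were left out. MGA, the largest protein of the network, held 217.6, 222.0 and 212.8 CPM in controls and 227.3, 243.8 and 233.8 CPM in knockdown, a separation without overlap but of a log2 of only 0.11 (SE 0.11, adjusted p 0.568).

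**Figure D2:**
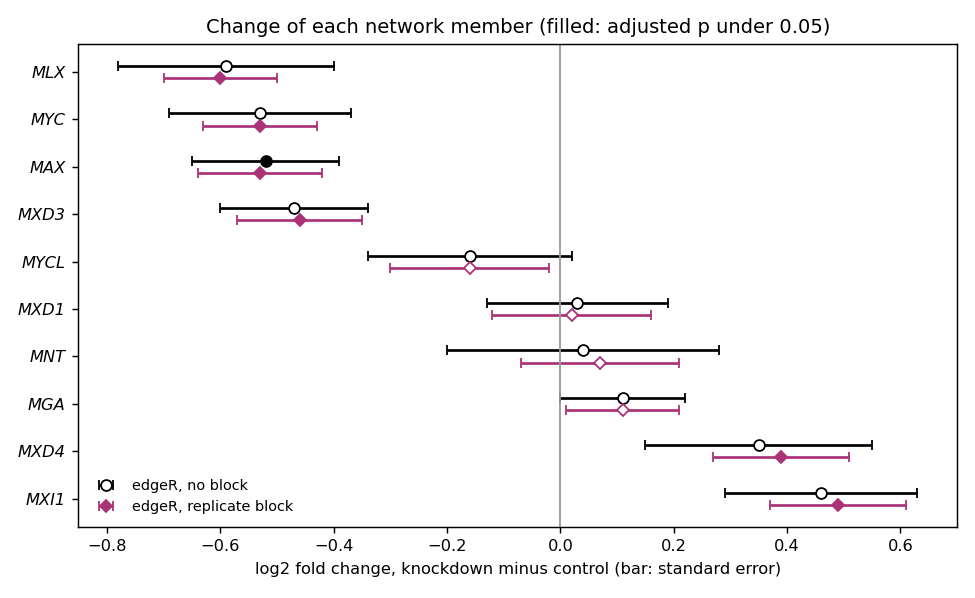
Log2 fold change of each member, knockdown minus control (horizontal axis), with its standard error, from the edgeR fit without the block (circles) and with the replicate block (diamonds), where filled symbols passed an adjusted p of 0.05. The fold changes barely differ between the fits, from about -0.6 for MLX to about 0.5 for MXI1, while 1 circle and 6 diamonds are filled.

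Levels of different genes can be compared only per length, so TPM values, which are counts per exon length scaled to the same sum in every library, were computed from the deposited counts and lengths. In control libraries MYC stood first at 241.8 ± 57.2 TPM (SD, n = 3), followed by MLX at 90.8 ± 9.94, MXD3 at 65.3 ± 5.55 and MXD4 at 44.0 ± 16.8 TPM. MGA, MAX and MXI1 followed with means of 36.1, 32.7 and 32.5 TPM and overlapping ranges, and MNT, MYCL and MXD1 were lowest at 6.47, 6.33 and 5.04 TPM, also overlapping. The control range of MXD4, 29.02 to 62.1 TPM, also overlapped that of MXD3 (58.9 to 69.1) and covered that of MGA (32.9 to 40.1) and MAX (29.8 to 35.9), so its place among them is not settled. In knockdown libraries MYC was still first (166.2 ± 32.8 TPM) and MLX second (60.3 ± 10.7), MXD4 (55.0) stood above MXD3 (47.2) with overlapping ranges, and MXI1 (44.9 ± 4.52) stood above MGA (38.8) and MAX (22.7). The ranges of MLX and MXD4 overlapped there, as did those of MXD3 and MXI1. MXI1 and MGA did not overlap there, and neither did MGA and MAX. MYC exceeded MAX by 5.98 to 8.06 times in control and by 6.44 to 7.74 times in knockdown libraries, ranges that overlap. The exon length counts every annotated exon, so genes with long, rarely used exons read lower per length.

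The balance of antagonists to MYC was followed as the summed TPM of MXD1, MXD3, MXD4, MXI1 and MNT over that of MYC and MYCL. The ratio was 0.732, 0.586 and 0.574 in control replicates 1, 2 and 3 and 1.00, 0.989 and 0.819 in knockdown replicates 1, 2 and 3. Every knockdown library was thus above every control library, and antagonist and activator transcripts were nearly equal per length in knockdown replicates 1 and 2. The size of the ratio depends on the exon lengths used. Its numerator includes MXD3, which shares exon sequence with PRELID1 and RAB24. On the log2 scale the ratio went from -0.674 ± 0.195 to -0.101 ± 0.162 (SD, n = 3), a difference of 0.57 that is given as a description. The numerator hardly differed, at 153 ± 19.6 TPM in control and 159 ± 15.5 TPM in knockdown, with MXD3 lower and MXI1 and MXD4 higher within it. The denominator went from 248 ± 58.2 to 172 ± 33.7 TPM.

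**Figure D3:**
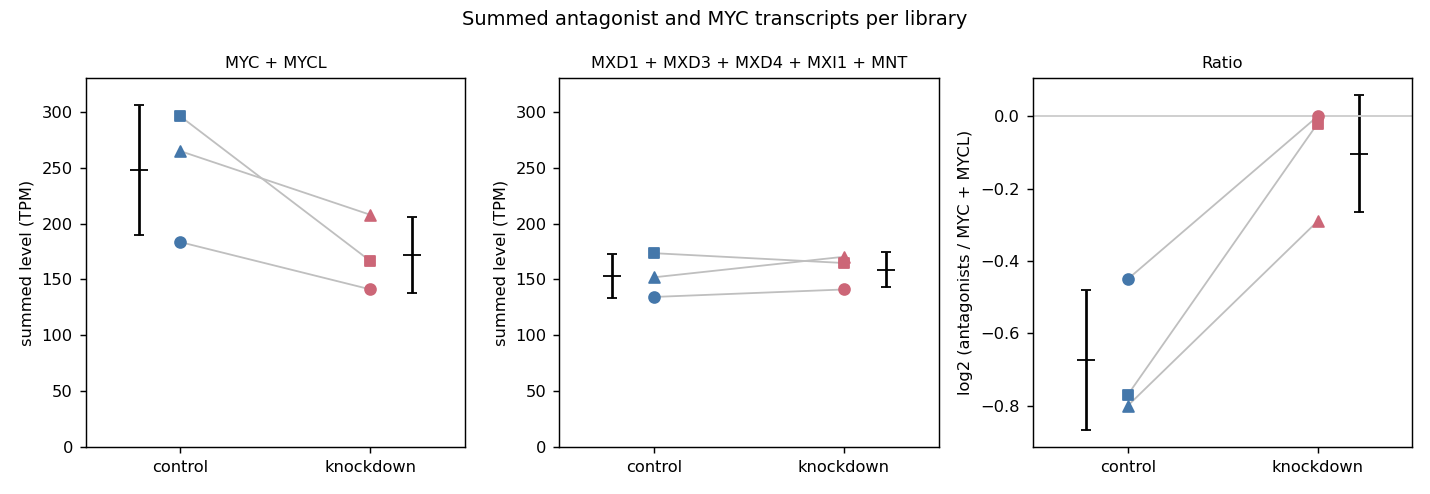
Summed TPM of MYC and MYCL (left), summed TPM of the 5 antagonists (middle, same axis from 0) and the log2 of their ratio (right) for each library, with lines joining replicate numbers and bars for mean and SD. The activator sum goes down along all 3 lines, the antagonist sum stays between 134.3 and 173.5 TPM, and the ratio goes up along all 3 lines.

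The MYC gene lies in a region with long noncoding RNAs, of which 4 were tested. Of these 1 was called higher without the block (PCAT1) and 2 with it (PCAT1 and PVT1), and 0 lower. Over all tested genes 2.72% were called higher without the block and 11.2% with it, and 13.4% lay higher without overlap. PVT1, whose transcript begins 53.1 kb after the end of MYC and which is often gained with it, held 42.4, 61.1 and 46.5 CPM in controls and 64.3, 78.1 and 77.5 CPM in knockdown, without overlap. Its log2 fold change was 0.55 (SE 0.16, edgeR adjusted p 0.0749) and it rose by 0.56 with the block (adjusted p 0.00218), opposite in sign to MYC in each pair. PCAT1, a prostate cancer transcript whose gene ends 714 kb before MYC, rose from 8.58 ± 1.89 to 25.8 ± 11.9 CPM (1.59, SE 0.33, adjusted p 0.0245). Its 3 knockdown libraries differed among themselves, at 14.0, 37.7 and 25.7 CPM, and its call held in 1 of the 6 fits that left out a library (adjusted p up to 0.0847) and with the block (1.52, adjusted p 6.01e-05). CASC11, which begins 1.47 kb before MYC on the other strand, had 0.893 ± 0.64 CPM in control and 0.844 ± 0.216 CPM in knockdown. CCAT1, also upstream, had 0.343 ± 0.189 and 0.709 ± 0.411 CPM, and neither was called.

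**Figure D4:**
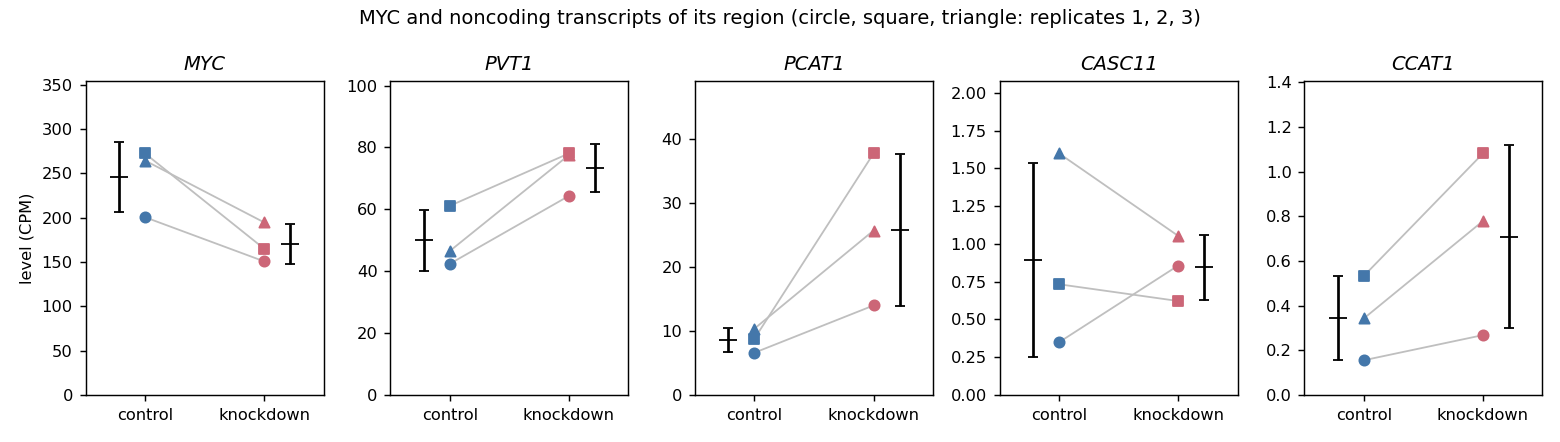
Levels in CPM (vertical axes, from 0) of MYC and of 4 noncoding transcripts of its region in the 6 libraries, with lines joining replicate numbers and bars for mean and SD. MYC goes down along all 3 lines, PVT1, PCAT1 and CCAT1 go up along all 3, and CASC11 has no common direction.

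MYC-activated genes were next in view: a list of 70 commonly named targets, mainly of ribosome assembly, metabolism and replication, of which 69 were tested. Of these 11 were lower and 0 higher without the block (15.9% lower), and 25 were lower and 0 higher with it (36.2%). The median log2 fold change was -0.23, 61 of the 69 were below 0, and the medians in pairs 1, 2 and 3 were -0.34, -0.24 and -0.21. Among all 9636 tested coding genes with a mean of at least 10 CPM, 8.22% were lower and 2.40% higher without the block, 24.2% and 10.9% with it, and the median was -0.08. Of these coding genes 60.1% were below 0, against 88.4% of the targets, and their medians in pairs 1, 2 and 3 were -0.08, -0.07 and -0.1. Leaving out single libraries left 1 target called (knockdown replicate 2), 2 (knockdown replicate 3) or 3 (control replicate 1), and 8 to 10 for the other libraries.

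NOLC1, a nucleolar chaperone of small nucleolar ribonucleoproteins, was the most uniform of these targets. It held 366.7 ± 6.71 CPM in control and 223.4 ± 3.39 CPM in knockdown (log2 fold change -0.71, SE 0.11, edgeR adjusted p 0.00721) and kept its call in all 6 fits that left out a library. GNL3, the nucleolar GTPase nucleostemin, fell by 0.85 (SE 0.14, adjusted p 0.00968), from 387.9 ± 57.4 to 214.5 ± 9.14 CPM. LDHA, the lactate dehydrogenase subunit with the 2 E-boxes shown above, fell by 0.81 (SE 0.15, adjusted p 0.0156), from 630.9 ± 77.4 to 359.4 ± 47.7 CPM. The other calls were the replication helicase subunits MCM4 (-1.35) and MCM5 (-1.09), the mitotic kinase PLK1 (-1.27), TMEM97 (-1.04), LAS1L (-0.72), the nucleolar protein NCL (-0.66), PA2G4 (-0.65) and SLC29A2 (-0.65). GNL3 kept its call in 5 of the 6 fits that left out a library, TMEM97 in 4, and LDHA and PA2G4 in 3 each. MCM4, MCM5, PLK1 and LAS1L kept theirs in 2 each, NCL in 1 and SLC29A2 (edgeR adjusted p 0.0479) in 0. MCM4 and PLK1, with MCM5 next, had the smallest p among the 7 cell cycle genes of the list, of which 6 were tested with a median of -1.05. With those genes removed, 8 of 63 targets were lower (12.7%), 20 with the block (31.7%), and the median was -0.21. The expressed coding genes given above had 8.22% lower, 24.2% with the block, and a median of -0.08.

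CACGTG was in the promoter of 26 of the 59 targets with an entry (44.1%, against 7.26% of all promoters). Of those 26 genes 2 were called lower, with a median of -0.22, and of the 33 without the word 5 were called lower, with a median of -0.26. These calls are without the block, where 8.22% of the expressed coding genes given above were lower, with a median of -0.08.

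**Figure D5:**
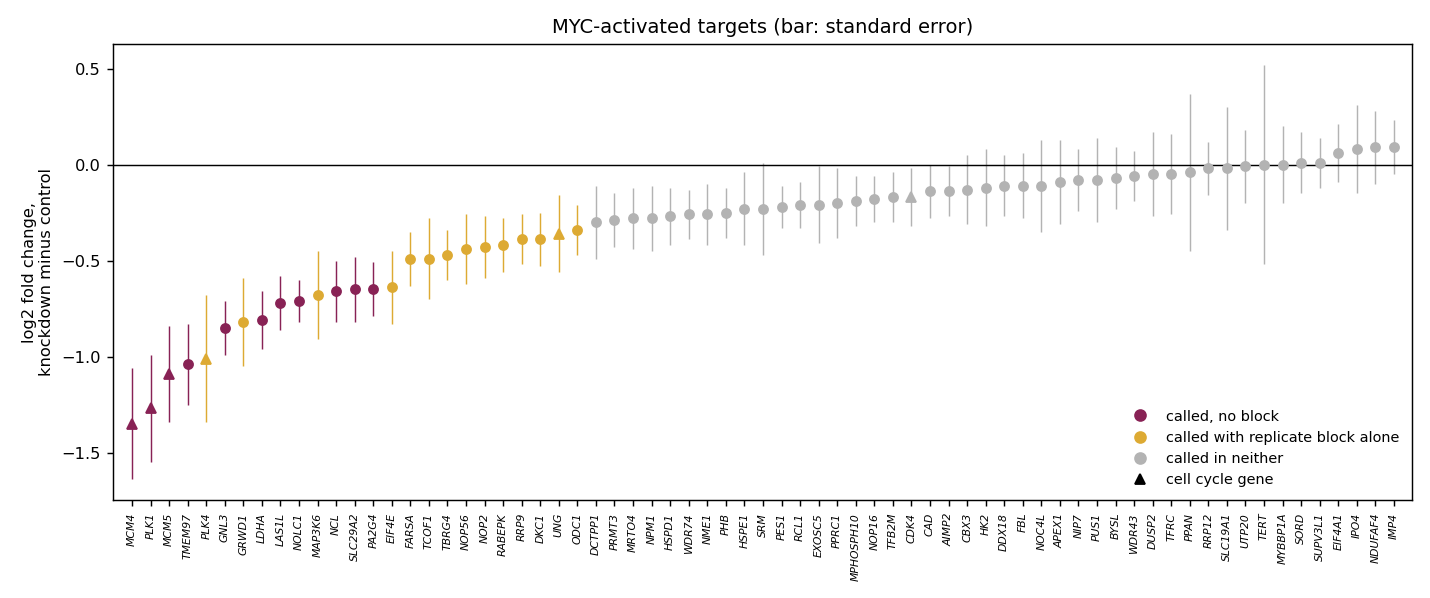
Log2 fold change, knockdown minus control, with its standard error for the 69 tested MYC-activated targets in order of size, coloured by whether edgeR called them without the block, with the replicate block alone or in neither fit, with triangles for cell cycle genes. The calls without the block span -0.65 to -1.35, and the highest value of the list is 0.09.

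Genes that MYC represses, often through the zinc finger protein ZBTB17, had no common direction. Of 9 tested, 1 was higher and 2 lower, and 4 were higher and 3 lower with the block, with a median of 0.36, beside a background of 2.72% higher and 4.88% lower over all genes, and of 11.2% and 14.9% in the block fit. Of the expressed coding genes given above, 2.40% were higher and 8.22% lower, and 10.9% and 24.2% with the block. The stress gene GADD45A rose from 10.6 ± 2.55 to 25.2 ± 3.04 CPM (1.25, SE 0.20, edgeR adjusted p 0.00968). The CDK inhibitor CDKN1B fell from 78.6 ± 8.92 to 43.1 ± 2.54 CPM (-0.87, adjusted p 0.00678), and NDRG1, also known as an androgen and hypoxia response gene, fell by 1.10 (adjusted p 0.0205). GADD45A and CDKN1B kept their calls in all 6 fits that left out a library, and NDRG1 in 3 of those 6 fits (adjusted p up to 0.0934).

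Of 16 coactivators, 2 were lower and 0 higher (6 and 0 with the block), with a median of -0.20. That is 12.5% lower, and 37.5% with the block, against the 8.22% and 24.2% of expressed coding genes given above. MYCBP, a small protein that binds the MYC amino terminus, fell from 39.3 ± 9.90 to 17.6 ± 3.81 CPM (-1.16, SE 0.22, edgeR adjusted p 0.0172), and the helicase RUVBL2 of the TIP60 complex fell by 0.67 (adjusted p 0.0272). ACTL6A, an actin-like subunit of chromatin complexes, had -0.64 without a call and with one in the block fit (adjusted p 0.000593). MYCBP lost its call without knockdown replicate 2 or 3 (adjusted p up to 0.0807), and RUVBL2 without any 1 of the 3 knockdown replicates (up to 0.0973).

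Of the 14 genes that act on MYC protein stability, 0 were called without the block (6 at an unadjusted p under 0.05, and 3 called lower by DESeq2), and with the block 4 were lower and 2 higher. Over all genes 24.7% had such an unadjusted p, DESeq2 called 7.38% lower, and the block called 14.9% lower and 11.2% higher. The block called 28.6% of these 14 lower and 14.3% higher, beside 24.2% and 10.9% of the expressed coding genes given above. The deubiquitinase USP28 had -0.55 (block edgeR adjusted p 0.00274), the kinase AURKA -1.11 (1.32e-05) and KIAA1524, the PP2A inhibitor now called CIP2A, -0.97 (3.69e-05). These 3 are known to protect MYC from degradation, and AURKA and CIP2A are also genes of dividing cells. The other 3 calls under the block are known to act in the degradation of MYC and moved in both directions. The kinase GSK3B, which marks MYC for destruction, was lower (-0.36, block adjusted p 0.0244), and the ubiquitin ligase subunits FBXW7 (0.41, block adjusted p 0.0141) and FBXO32 (0.70, block adjusted p 0.0034) were higher. GSK3B, FBXW7 and FBXO32 were chosen for naming after their values were seen.

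Of 14 subunits of the SIN3 complex that MXD proteins recruit, 1 was lower and 0 higher (2 and 0 with the block), with a median of -0.04. The shares of 7.14% and 14.3% lower were near those of all genes (4.88% and 14.9%). Both were below those of the expressed coding genes given above (8.22% and 24.2%). The deacetylase HDAC1 fell from 178.4 ± 22.1 to 121.5 ± 7.73 CPM (-0.55, SE 0.13, edgeR adjusted p 0.037), a call kept in 1 of the 6 fits that left out a library and lost with upper quartile scaling. SAP18 had -0.37 (block adjusted p 0.0182) and RBBP4, a histone-binding subunit, 0.16 without a call in either fit.

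Of 9 other subunits of the MGA Polycomb complex, 1 was lower and 0 higher (3 and 0 with the block), with a median of -0.13. The shares of 11.1% and 33.3% lower stood beside 8.22% and 24.2% of expressed coding genes, whose median was -0.08, and CBX3 of this list is also among the MYC targets. L3MBTL2, its methyl-lysine reader, fell to 65.6 ± 5.81 CPM in the knockdown (-0.61, SE 0.13, edgeR adjusted p 0.029), a call kept in 2 of the 6 fits that left out a library, while E2F6 (-0.45) and TFDP1 (-0.40) were called with the block alone (adjusted p 0.0411 and 0.0172). Of 11 germline genes that the complex silences 7 had too few reads to test. The other 4 gave 1 call lower and 0 higher, without the block and with it (25.0% lower). Over all genes 4.88% were called lower without the block and 14.9% with it. TDRKH, a Tudor domain protein of the piRNA pathway, was that call (-0.81, edgeR adjusted p 0.0166), kept in 3 of the 6 fits that left out a library. SMC1B (0.67) and TUBB3 (0.94), both near or under 1 CPM, and STAG3 (-0.06) were not called.

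MLX works with MLXIP and MLXIPL, whose best-known targets are TXNIP, a brake on glucose uptake, and ARRDC4. MLXIP had 54.6 ± 19.7 CPM in control and 70.1 ± 14.9 CPM in knockdown (0.36, edgeR adjusted p 0.415), and MLXIPL had 1.55 and 1.93 CPM. The TXNIP promoter holds a pair of E-box-like words, searched on both strands as CACGNG and CNCGNG with 5 bases between them. The pair was in 0.501% of all promoters and is shown here in capitals because MLX dimers are known to use it.
TXNIP, chr1:145996645-145996673, minus strand: gatgtgCACGAGGGCAGCACGAGcctccg
The TXNIP transcript held 253.1, 276.4 and 492.8 CPM in controls and 275.3, 338.1 and 409.0 CPM in knockdown, with full overlap and a log2 fold change of 0.00 (SE 0.26), from -0.15 to 0.36 when single libraries were left out. ARRDC4 had a log2 fold change of 0.40 (SE 0.22, adjusted p 0.286) and rose in the block fit (0.40, adjusted p 0.0292).

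The genes most like MYC over the 6 libraries were found among 9635 coding genes with a mean of at least 10 CPM, by the mean absolute difference of centred log2 CPM. They were HDAC5 (0.039), CYB561 (0.041), PPM1E (0.046), ZNF671 (0.057) and MYO1C (0.062), where the median gene differed by 0.321. Most like MAX were LIG3 (0.044), DUSP16 (0.045), IPO13 (0.046), PIGO (0.048) and ZBTB26 (0.049), against a median of 0.272. None of the 5 nearest to MYC was called without the block, and LIG3 (-0.55, edgeR adjusted p 0.0199) and DUSP16 (-0.49, adjusted p 0.0364) of those nearest to MAX were. The genes were picked for likeness over the same 6 libraries, so their fold changes follow from that choice and are no separate result.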

How the data were processed

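The authors deposited 1 table of raw read counts for the 6 libraries, in whole numbers, beside each gene's exon length. Per the submitters' processing notes, the tools were bcl2fastq, STAR 2.5, featureCounts from Subread 1.6.5 and edgeR 3.20.8, with the hg38 build. The annotation release and the strand setting are not given in the sources used here. Per the labels' protocols, Trizol was used for RNA and an Illumina TruSeq kit for the libraries. The table held 0 entries without a gene name. Gene types came from GENCODE 29.

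Computed here from the counts were TMM scaling, filterByExpr, and edgeR 4.0.16 quasi-likelihood tests in R 4.3.3, two-sided, with Benjamini-Hochberg adjustment over all 21101 tested genes and a threshold of 0.05. Fold changes are given as log2 of knockdown over control, with the coefficient's SE. CPM uses TMM-scaled totals. TPM uses the deposited lengths. Precision is limited by 3 libraries per group, which the series text calls biological replicates. Alternatives were RLE and upper quartile scaling, no filter and a stricter filter, DESeq2 1.42.0, limma-voom (limma 3.58.1), a block on the replicate number, each library left out, and, chosen after seeing the data, the block fit without each pair.

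Deviations from the group means correlated at 0.554, 0.381 and 0.358 between libraries with the same number, and at -0.39 to 0.06 otherwise. Libraries with the same number thus deviated together, but what the number marks is not given in the sources used here. Residual degrees of freedom were 4 without the block and 2 with it. The main design was set without the block because the number is not stated to mark a shared culture. It was kept after these correlations were seen, so calls without the block leave the shared deviation in the error. Results with the block are given beside it.

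Named genes were the 10 members, the 3 genes with the smallest p in each other list, all of the short lists, and the 5 genes most like MYC and MAX. Other called targets and turnover genes were named after their values were seen. The members and lists were chosen with earlier results of these data known. Of the luminal marker list, 1 gene is not reported here, and the summed level leaves it out.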

Additional observations from a re-analysis of the deposited data

How the results depend on the processing

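With the replicate block, 2358 genes were called higher and 3148 lower, against 574 and 1029 without it, and the members called were 2 higher and 4 lower against 0 and 1. The block called 25 MYC-activated targets lower (11 without it), 6 coactivators (2), 2 SIN3 subunits (1) and 3 MGA complex subunits (1), and of the protein turnover genes 2 higher and 4 lower (0 and 0) and of the MYC-repressed genes 4 higher (1). In block fits without pair 1, 2 or 3, all genes gave 1372, 3648 and 1948 higher and 1786, 3761 and 2624 lower, and members 1, 2 and 1 higher and 3, 4 and 4 lower. With no filter the counts were 1336 and 1812 for all genes, 3 members lower, 17 targets lower, 4 coactivators lower, 1 higher and 3 lower turnover genes and 2 higher repressed genes. DESeq2 called 2 members, 17 targets and 3 turnover genes lower. Upper quartile scaling called 894 genes higher, 0 members lower, 0 SIN3 subunits lower and 1 turnover gene higher, and 55.3% of its calls were higher against 35.8% with TMM. Leaving out 1 library gave 168 to 500 genes higher and 329 to 923 lower, 0 to 1 members higher and 0 to 1 lower, 1 to 10 targets, 0 to 2 coactivators, 0 to 1 SIN3 subunits and 0 to 1 MGA complex subunits lower, 0 to 2 turnover genes lower and 1 to 2 repressed genes lower. The ratio of antagonists to MYC differed by 0.75 in pair 2 alone, against 0.57 over all libraries.

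The sign turned for MXD1 (-0.04 in the block fit without pair 1, and -0.05 to 0.07 over fits without 1 library), for MNT (-0.05 in the block fit without pair 3, and -0.09 to 0.31) for CASC11 (0.03 with limma-voom, and -0.47 to 0.6) and for RAB24 (-0.08 to 0.58, below 0 without knockdown replicate 2). TXNIP, at 0.00, lay on both sides of 0 over the alternatives. Fewer libraries or more genes tested set part of these differences, and the cause was not tested further. The 3 libraries per group and 2 residual degrees of freedom under the block limit what can be called, and CASC11, CCAT1, SMC1B and TUBB3 had too few reads for a firm direction.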
